A study of Mus musculus with 38 samples.

Results

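The comparison described here sets mouse embryonic stem cells given BRM014 beside cells given its inactive analog, at the same dose and for the same time. It rests on 4 of the 38 libraries of the series, taken by their labels alone. In the first group, 2 libraries come from wild-type cells with 10 uM BRM014 for 24 h, and in the second, 2 libraries come from wild-type cells with 10 uM of the inactive analog for 24 h. All carry the label of experimental batch 2450, called the first batch here. A pair of libraries of wild-type cells with DMSO for 24 h in that batch gives the vehicle level beside each value. The cells have the 129S6/SvEvTac background and grew on gelatin in medium with fetal calf serum and leukemia inhibitory factor, conditions that every group shares. DMSO was the solvent of both compounds (stocks of 10 mM), and the labels state neither a structure for them nor a dose for DMSO. Further values come from the same pair of compounds after 1 h (2 libraries each, first batch) and from wild-type cells with 10 uM BRM014 or with DMSO for 24 h in experimental batch 2457 (2 libraries each, the second batch). Replicates are described as biological, with no culture or day named, so the p-values rest on the spread between these libraries, some of which may be technical.

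SWI/SNF complexes are chromatin remodellers that spend ATP to slide or evict nucleosomes at promoters and enhancers. Their motor subunit is either BRG1, the product of Smarca4, or BRM, the product of Smarca2, and BRM014 blocks the ATPase activity of both. In embryonic stem cells the complex works at sites bound by the pluripotency factors and at genes that answer to signals. The comparison with an inactive analog asks which of the transcripts that differ after drug treatment also differ from cells that met a related compound without this activity.

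The BRM014 libraries held 20325039 and 19971280 counts and the analog libraries 21950360 and 22533470, over 15061 to 15141 detected genes, with 4.6% to 4.78% of the counts on the 10 highest genes. Replicates correlated at 0.9936 with BRM014 and 0.9935 with the analog (log2 CPM), and none were identical. Levels are given in CPM, counts scaled to a common library size with TMM factors and not divided by gene length, so they are compared between libraries and not between genes. Embryonic stem cell markers were present throughout: their summed level over 10 genes was 6355 and 6346 CPM with BRM014, 6943 and 6881 CPM with the analog and 5946 and 5733 CPM with DMSO. Sox2 and Tfcp2l1 among these markers were listed at 0 in all 38 libraries, as was Smarca4, so their expression is not described. Smarca2 had 12.98 and 14 CPM with BRM014, 12.4 and 12 CPM with the analog and 11.98 and 16.2 CPM with DMSO, and its difference between the compounds (0.15 ± 0.14 log2, 95% interval -0.13 to 0.43) did not pass the test. In bulk RNA, fewer cells of a type and less RNA per cell cannot be told apart.

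At 24 h the compounds gave different transcript levels in 4436 of the 12517 genes tested (35.4%) at an adjusted p under 0.05. With BRM014, 2168 genes were higher (17.3%) and 2268 were lower (18.1%) than with the analog. Most differences were small: the median size was 0.516 log2 among higher genes and 0.504 among lower genes. A difference of at least 2-fold was found for 460 higher genes (3.68%) and 582 lower genes (4.65%), and of at least 8-fold for 40 higher and 60 lower genes. Fold changes are log2 of BRM014 over the analog, given ± standard error, and adjusted p-values come from edgeR's quasi-likelihood test with Benjamini-Hochberg adjustment over all genes tested. Between single libraries, the root-mean-square distance on log2 CPM was 0.672 to 0.687 for BRM014 against the analog. It was 0.367 between the BRM014 replicates and 0.369 between the analog replicates. The BRM014 and analog libraries did not overlap in 8532 of the 12517 genes tested (68.2%) and in 4427 of the 4436 called (99.8%). The leading rises and falls were chosen among genes without overlap.

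Of 7490 genes with a mean of at least 10 CPM, 4346 did not pass the test. The 95% interval of the difference lay within 2-fold for 4330 of these and within 1.25-fold for 2820. The median half-width of the interval over the 7490 genes was 0.17 log2. A gene that missed the threshold is therefore bounded by its interval, which is given beside the genes named as such, and is not shown to behave alike with the compounds. Intervals are for the single gene and are not adjusted for the number of genes, so they can leave out 0 where the adjusted p misses the threshold.

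**Figure D1:**
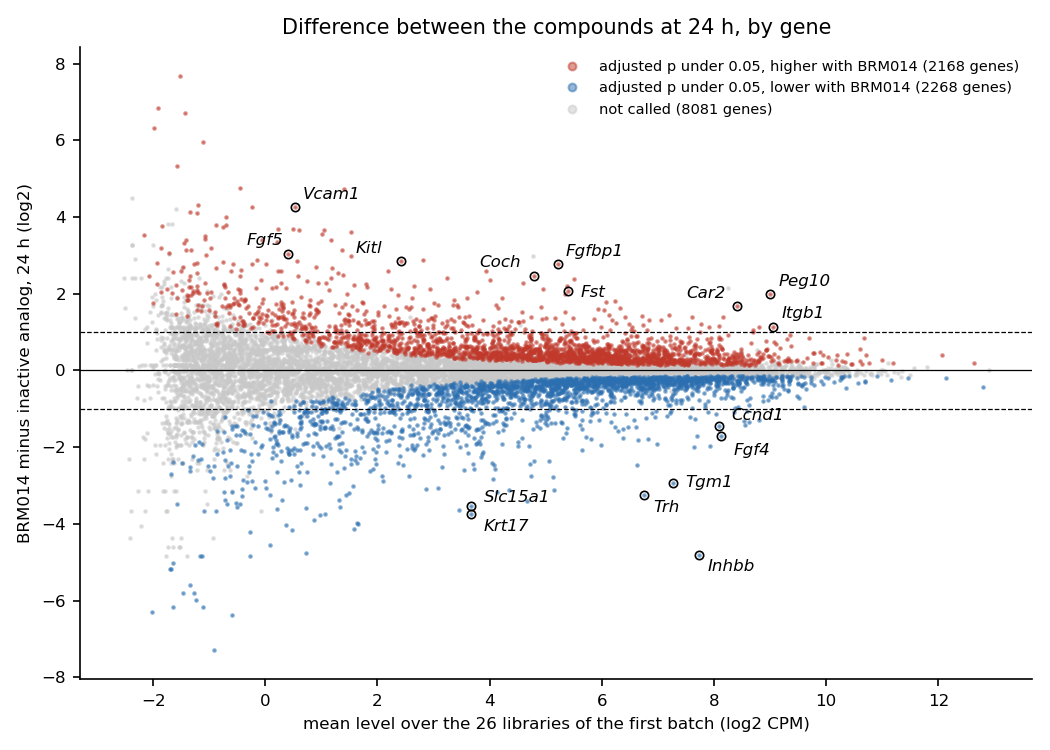
Difference between the compounds after 24 h for each of 12517 genes (y axis, log2 of BRM014 over the inactive analog) against its mean level in the first batch (x axis, log2 CPM). Red and blue points are the 2168 higher and 2268 lower genes at an adjusted p under 0.05, grey points are the rest, dashed lines mark 2-fold, and Inhbb lies lowest among the circled genes at -4.80.

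Genes lower with BRM014 were led by Inhbb, which encodes the beta B subunit of activin and inhibin. Inhbb had 8.03 and 9.25 CPM with BRM014, 249 and 233 CPM with the analog and 276 and 253 CPM with DMSO. The BRM014 libraries lay far under all others, whereas analog and DMSO libraries were near each other. The difference from the analog was -4.80 ± 0.09 log2 (adjusted p = 2.38e-25), or 27.9-fold lower, and the analog differed from DMSO by -0.14 ± 0.07 (adjusted p = 0.184, interval -0.28 to 0.01). Trh, the precursor of thyrotropin-releasing hormone, had 12.1 and 10.5 CPM with BRM014, 104 and 112 CPM with the analog and 215 and 183 CPM with DMSO. Its groups formed 3 separate levels, with log2 differences of -3.25 ± 0.10 for BRM014 minus analog and -0.88 ± 0.08 for analog minus DMSO (adjusted p = 7.55e-20 and 8.66e-09). Tgm1, the transglutaminase that cross-links the envelope of keratinocytes, had 15.2 and 14.4 CPM with BRM014, 116 and 109.8 CPM with the analog and 158 and 152 CPM with DMSO (-2.94 ± 0.07 log2, adjusted p = 3.85e-22).

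Keratin genes were among the furthest falls. Krt17, a keratin of stratified epithelia, had 1.31 and 0.869 CPM with BRM014, against 14.8 and 14.7 CPM with the analog (-3.75 ± 0.24 log2). Krt42, another type I keratin, had 1.82 and 1.64 CPM with BRM014, against 16.5 and 14.9 CPM with the analog (-3.18 ± 0.20). In both genes every BRM014 library was under 2 CPM and every analog library over 14. Hopx, an unusual homeodomain protein that does not itself bind DNA, had 0.859 and 0.920 CPM with BRM014, against 11.5 and 10.7 CPM with the analog (-3.63 ± 0.24). Among transport genes, Slc28a1, a nucleoside carrier, had 3.13 and 2.86 CPM with BRM014, against 25.6 and 26.3 CPM with the analog (-3.11 ± 0.13); the DMSO libraries had 25.02 and 24.2 CPM, near the analog. Slc15a1, the peptide carrier of the gut, had 1.57 and 1.89 CPM with BRM014, 19.8 and 20.2 CPM with the analog and 8.82 and 10.5 CPM with DMSO. Here the analog libraries were above DMSO (1.06 ± 0.12 log2, adjusted p = 1.83e-07) and the BRM014 libraries below it, with log2 differences of -3.53 ± 0.16 for BRM014 minus analog and -2.47 ± 0.17 for BRM014 minus DMSO.

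Other leading falls were also lower with the analog than with DMSO of the first batch. Aqp8, a water channel, had 0.353 and 0.204 CPM with BRM014, 2.30 and 2.58 CPM with the analog and 9.18 and 7.24 CPM with DMSO (-3.10 ± 0.38 between the compounds). Igsf21, a synaptic adhesion protein of the immunoglobulin family, had 1.26 and 0.920 CPM with BRM014, 12.8 and 10.2 CPM with the analog and 25.2 and 23.3 CPM with DMSO (-3.39 ± 0.32). Xaf1, a partner of the apoptosis inhibitor XIAP, had 1.01 and 0.409 CPM with BRM014, 6.43 and 5.57 CPM with the analog and 12.2 and 11.3 CPM with DMSO (-3.07 ± 0.26). In these 3 genes the analog libraries lay between the BRM014 and the DMSO libraries of the first batch, without overlap. Mymx, the microprotein that fuses myoblasts, instead had 5.25 and 5.57 CPM with BRM014, 47.6 and 46.4 CPM with the analog and 53.3 and 48.1 CPM with DMSO (-3.12 ± 0.14), so its analog and DMSO libraries were close. Among the 12 leading falls all had an adjusted p of at most 1.43e-07. DMSO libraries of the second batch had 2.39 and 3.82 CPM for Aqp8, 12.8 and 12.9 for Igsf21 and 7.95 and 7.13 for Xaf1. These levels were lower than with DMSO in the first batch and nearer those with the analog.

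Genes higher with BRM014 included Fgfbp1, Fbn2, Kitl and Coch. Fgfbp1, which releases FGFs from the matrix, had 123 and 111 CPM with BRM014, 16.8 and 17.3 CPM with the analog and 17.0 and 13.9 CPM with DMSO. The BRM014 libraries stood clear of both other groups, a difference from the analog of 2.78 ± 0.09 log2 (6.85-fold, adjusted p = 1.97e-19). Fbn2, the microfibril protein fibrillin-2, had 30.4 and 26.5 CPM with BRM014, 4.00 and 3.67 CPM with the analog and 4.45 and 6.03 CPM with DMSO (2.89 ± 0.18 log2, adjusted p = 1.73e-13). Kitl, the ligand of the KIT receptor, had 15.9 and 12.5 CPM with BRM014, 2.11 and 1.81 CPM with the analog and 2.07 and 2.15 CPM with DMSO (2.85 ± 0.21, adjusted p = 6.24e-12). For Fbn2 and Kitl the analog did not differ from DMSO by the test, with intervals of -0.87 to -0.01 and -0.65 to 0.45 log2. Coch, a matrix protein of the inner ear, had 129 and 113 CPM with BRM014, 21.2 and 22.3 CPM with the analog and 15.6 and 13 CPM with DMSO (2.47 ± 0.11), and its analog libraries were above DMSO as well (0.60 ± 0.12, adjusted p = 0.000822).

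Among intracellular and surface proteins, Cryab, a small heat shock protein, had 122 and 152 CPM with BRM014, against 26.8 and 25.7 CPM with the analog (2.38 ± 0.10 log2), and Ctsc, a lysosomal dipeptidyl peptidase, had 146 and 133 CPM with BRM014, against 29.4 and 31.4 CPM with the analog (2.20 ± 0.08). Mrc2, a receptor that takes up collagen, had 59.6 and 61.6 CPM with BRM014, against 12.7 and 11.0 CPM with the analog (2.35 ± 0.12). Lpar4, a lysophosphatidic acid receptor, had 35.1 and 34.3 CPM with BRM014, against 6.11 and 6.98 CPM with the analog (2.41 ± 0.16). Each of these was at least 4-fold higher with BRM014. Ccno, a cyclin needed by multiciliated cells, had 36.2 and 40.2 CPM with BRM014, 7.63 and 5.03 CPM with the analog and 3.44 and 3.98 CPM with DMSO (2.59 ± 0.15 between the compounds), Pm20d2, a peptidase, differed by 2.59 ± 0.17 and Greb1l, a relative of the estrogen-induced gene Greb1, by 2.28 ± 0.12. Vrtn, a DNA-binding protein known for setting vertebral number in pigs, had 18.9 and 18.2 CPM with BRM014, against 3.77 and 4.21 CPM with the analog (2.21 ± 0.18).

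**Figure D2:**
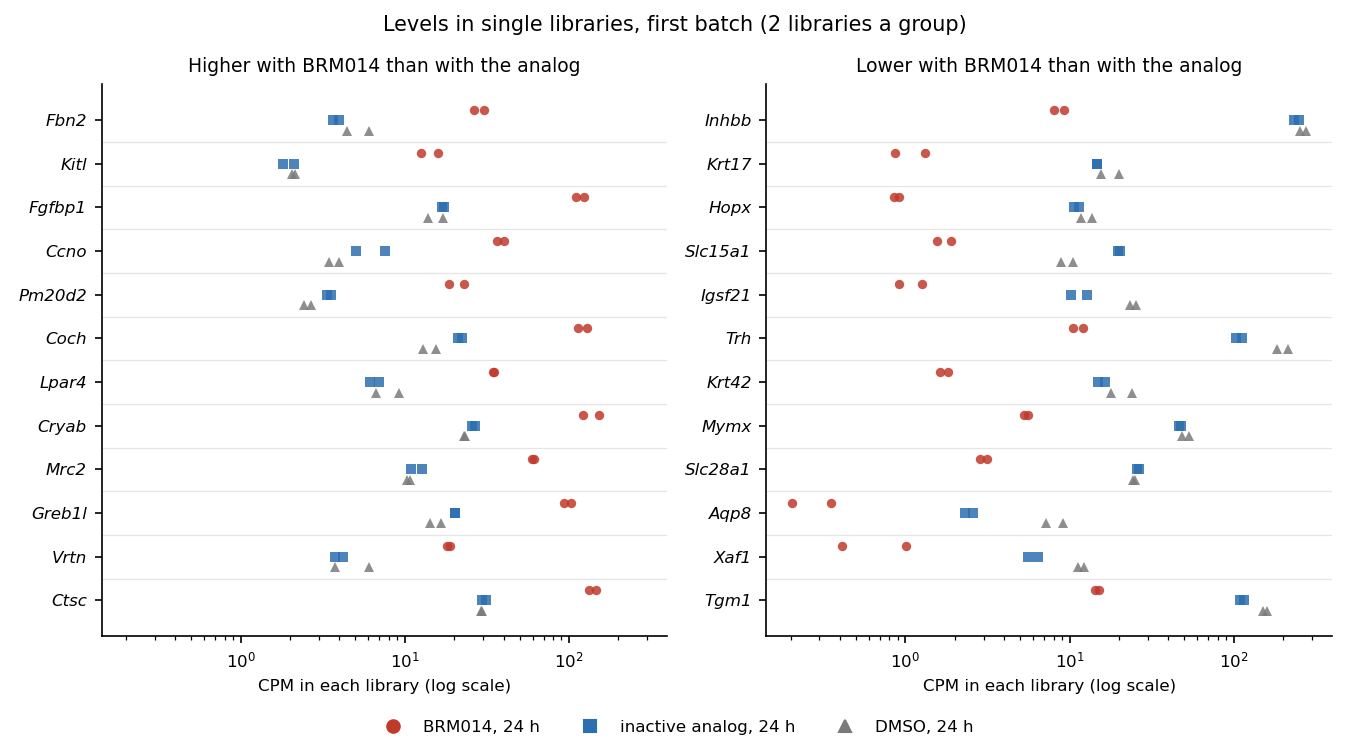
Level of the 12 leading rises (left) and 12 leading falls (right) in each of 6 libraries of the first batch, in CPM on a log scale, with BRM014 in red circles, the inactive analog in blue squares and DMSO in grey triangles (2 libraries each). The 24 genes were chosen for groups that do not overlap, and for Inhbb the BRM014 libraries sit at 8.03 and 9.25 CPM against 249 and 233 CPM with the analog.

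Promoter windows of 4 of these genes are shown because 2 fell and 2 rose, so that a reader can set the letters at their starts beside the values. Each covers 250 bases before to 50 bases after the start of the gene, from RefSeq on GRCm38.p6, written 5′ to 3′ on the strand of the gene. Inhbb lies at chr1:119422199-119422498, strand -, Krt42 at chr11:100269902-100270201, strand -, Fgfbp1 at chr5:43981750-43982049, strand - and Kitl at chr10:100015571-100015870, strand +. Capitals mark matches on either strand to TATAAA, the core of the TATA box, and to GGGCGG, the GC box bound by Sp1.
Inhbb: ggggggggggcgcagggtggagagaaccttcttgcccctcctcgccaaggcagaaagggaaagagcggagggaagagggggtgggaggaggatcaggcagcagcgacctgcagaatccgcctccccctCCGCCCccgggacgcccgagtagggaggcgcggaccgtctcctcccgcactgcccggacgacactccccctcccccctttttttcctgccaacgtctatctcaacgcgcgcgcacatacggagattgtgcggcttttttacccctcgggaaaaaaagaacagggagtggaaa
Krt42: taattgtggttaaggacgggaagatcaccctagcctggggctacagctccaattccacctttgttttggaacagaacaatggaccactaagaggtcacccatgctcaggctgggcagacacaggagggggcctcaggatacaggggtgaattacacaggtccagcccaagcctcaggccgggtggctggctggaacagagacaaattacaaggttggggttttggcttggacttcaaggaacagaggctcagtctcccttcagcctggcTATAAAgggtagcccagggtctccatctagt
Fgfbp1: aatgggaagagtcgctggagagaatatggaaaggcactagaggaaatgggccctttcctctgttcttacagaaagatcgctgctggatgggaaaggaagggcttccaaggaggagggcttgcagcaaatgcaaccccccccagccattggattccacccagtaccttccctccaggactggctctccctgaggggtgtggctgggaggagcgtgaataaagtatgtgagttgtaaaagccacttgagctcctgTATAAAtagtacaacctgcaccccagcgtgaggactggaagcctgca
Kitl: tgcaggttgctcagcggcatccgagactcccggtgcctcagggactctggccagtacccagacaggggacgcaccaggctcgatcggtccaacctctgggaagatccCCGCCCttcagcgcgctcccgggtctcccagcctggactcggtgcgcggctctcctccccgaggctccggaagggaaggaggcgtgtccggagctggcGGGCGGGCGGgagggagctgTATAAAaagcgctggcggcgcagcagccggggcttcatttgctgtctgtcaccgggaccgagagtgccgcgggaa
Counted from the first base of each window, Inhbb holds GGGCGG on the opposite strand at 129 to 134 and no TATAAA. Krt42 holds TATAAA at 270 to 275 and Fgfbp1 at 254 to 259, both past the annotated start at base 251. Kitl holds TATAAA at 226 to 231, GGGCGG at 206 to 211 and, overlapping it, at 210 to 215, and GGGCGG on the opposite strand at 108 to 113. Over all 27025 windows of the table, 14.2% hold TATAAA and 35.9% hold GGGCGG, and over the 9294 windows matched to genes tested here, 7.42% and 61.9%. These letters are a description of the windows. A promoter was found for 74.3% of the genes tested, under the 80% needed, so a comparison of higher with lower genes is void and is not given.

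Signalling genes differed in both directions. Counts of called genes in this and the other gene lists are read beside 17.3% higher and 18.1% lower over all genes. Activin and Nodal are TGF-beta ligands that act through SMAD2 and SMAD3, with Lefty genes as secreted inhibitors and follistatin as a trap for activin. Of 16 genes of this pathway tested, 4 were higher and 8 lower, with a median of -0.23 log2 against 0.003 over all genes. Beside the ligand gene Inhbb, Fst, which encodes follistatin, had 90.2 and 94.8 CPM with BRM014, 21 and 23.1 CPM with the analog and 21.2 and 19.7 CPM with DMSO. Its BRM014 libraries were about 4-fold above both other groups (2.07 ± 0.09 log2, adjusted p = 2.06e-17). The ligand Nodal was also higher (0.57 ± 0.07). Pmepa1, a feedback inhibitor induced by TGF-beta, had 8.38 and 8.84 CPM with BRM014, 26.1 and 22.3 CPM with the analog and 39.7 and 40.8 CPM with DMSO (-1.49 ± 0.11), and Skor1, a SMAD corepressor, had 0.757 and 0.818 CPM with BRM014, 5.05 and 3.99 CPM with the analog and 9.09 and 11.4 CPM with DMSO (-2.51 ± 0.28). Lefty1 had 11.8 and 14.5 CPM with BRM014, 27.4 and 25.8 CPM with the analog and 69.9 and 57.6 CPM with DMSO, and Lefty2 had 7.98 and 9.20 CPM with BRM014, 18.6 and 17.6 CPM with the analog and 51.5 and 46.6 CPM with DMSO. Both showed 3 separate levels, with BRM014 lowest, the analog between and DMSO highest. For Lefty1 the log2 difference was -1.02 ± 0.25 for BRM014 minus analog and -1.26 ± 0.22 for analog minus DMSO, and for Lefty2 it was -1.08 ± 0.13 and -1.44 ± 0.11. Those differences share the analog libraries.

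FGF signalling through ERK drives embryonic stem cells out of naive pluripotency, and its own targets feed back on it. In the list of FGF and ERK feedback genes, 11 of 20 were higher and 4 lower, with a median of 0.65 log2, beside 17.3% higher and 18.1% lower over all genes. Among ligands, Fgf4, the main FGF made by these cells, had 123 and 126 CPM with BRM014, 422 and 392.4 CPM with the analog and 352 and 383 CPM with DMSO (-1.71 ± 0.06 log2, adjusted p = 5.07e-19). Fgf15, an endocrine FGF, had 5.15 and 6.39 CPM with BRM014, 33.2 and 30.9 CPM with the analog and 32.9 and 37.0 CPM with DMSO (-2.47 ± 0.12). Fgf5, a marker of the formative state, had 5 and 3.73 CPM with BRM014, 0.505 and 0.544 CPM with the analog and 0.689 and 0.524 CPM with DMSO (3.04 ± 0.38). Fgf4 and Fgf15 were thus lower and Fgf5 higher, each with analog and DMSO libraries close together. The receptors Fgfr1 (0.74 ± 0.07), Fgfr3 (0.74 ± 0.12) and Fgfr4 (0.69 ± 0.17) were higher. So were the feedback inhibitors Dusp6, an ERK phosphatase with 336 and 334 CPM with BRM014, 146 and 142 CPM with the analog and 136 and 149 CPM with DMSO (1.22 ± 0.06, adjusted p = 2.11e-16), Spry2 (0.93 ± 0.13), Spry4 (0.81 ± 0.14), Spred2 (0.62 ± 0.12) and Il17rd (1.13 ± 0.08). Spred1, of the same family, was lower by a smaller amount (-0.24 ± 0.08). Over the list, 4 genes were at least 2-fold higher and 3 at least 2-fold lower. The lower ones include Fgf4 and Fgf15, and not all are named here.

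In the BMP pathway, where ligands act through SMAD1 to induce Id genes, 6 of 15 genes were higher and 3 lower (median 0.58 log2). The ligand Bmp4 had 22.2 and 21.6 CPM with BRM014, 63.6 and 58.0 CPM with the analog and 70.2 and 68.1 CPM with DMSO (-1.47 ± 0.07, adjusted p = 1.91e-16), and the ligand Bmp7 was lower as well (-2.06 ± 0.37). The receptor Bmpr1b had 10.6 and 12.3 CPM with BRM014, 1.33 and 1.27 CPM with the analog and 1.15 and 0.944 CPM with DMSO (3.13 ± 0.25). Id2, an inhibitor of basic helix-loop-helix factors, had 146 and 134 CPM with BRM014, 42.6 and 38.8 CPM with the analog and 37.0 and 34.97 CPM with DMSO (1.79 ± 0.09), Id3 differed by 0.81 ± 0.13 and Id4 by -1.63 ± 0.26, so Id genes moved in both directions. Chrd, the BMP antagonist chordin, was higher (1.40 ± 0.14). Of 13 Wnt target genes, 1 was higher and 4 were lower, a called share of 38.5%, close to the 35.4% over all genes. Axin2, a feedback inhibitor of Wnt signalling, had 3.89 and 3.94 CPM with BRM014, 10.0 and 9.69 CPM with the analog and 12.3 and 14.5 CPM with DMSO (-1.33 ± 0.16), and Dkk1, a secreted Wnt antagonist, was the higher gene (1.30 ± 0.18). The analog alone had 5 of the 13 lower than DMSO, beside 9.52% lower over all genes.

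Pluripotency genes stayed expressed with both compounds. In the core list 9 of 17 genes were higher and 4 lower (median 0.15 log2), and in the naive list 2 of 14 were higher and 9 lower (median -0.27). Nanog had 646 and 641 CPM with BRM014, against 669 and 638 CPM with the analog, a difference of -0.02 ± 0.07 that did not pass the test (interval -0.16 to 0.11), and Klf4 had 244 and 275 CPM with BRM014, against 281 and 228 CPM with the analog (0.03 ± 0.09, interval -0.15 to 0.21), also not called. Pou5f1, which encodes OCT4, was lower by a small amount (-0.29 ± 0.07, adjusted p = 0.00259). Among naive factors, Esrrb had 421 and 462 CPM with BRM014, against 727 and 666 CPM with the analog (-0.66 ± 0.07), Tcl1, an AKT coactivator, had 34.95 and 32.2 CPM with BRM014, against 76.7 and 71.1 CPM with the analog (-1.14 ± 0.09), and Gbx2 had 55.6 and 60.6 CPM with BRM014, against 114 and 89.4 CPM with the analog (-0.81 ± 0.10). These 3 were lower in each BRM014 library than in either analog library. Nr5a2 went the other way, with 151 and 149 CPM with BRM014, 99.7 and 105 CPM with the analog and 148 and 152 CPM with DMSO (0.56 ± 0.06). Its BRM014 libraries were close to DMSO and its analog libraries were the low ones (-0.55 ± 0.06 for analog minus DMSO).

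Of 8 genes of the formative and primed states, 5 were higher and 1 lower (median 0.47). Zic2, a zinc finger factor of the primed epiblast, had 31.1 and 34.6 CPM with BRM014, 10.0 and 7.66 CPM with the analog and 8.95 and 7.44 CPM with DMSO (1.89 ± 0.13, adjusted p = 1.53e-12). Cdh2, which encodes N-cadherin, had 13.7 and 14.8 CPM with BRM014, against 6.11 and 5.57 CPM with the analog (1.29 ± 0.13). Dnmt3b, a de novo DNA methyltransferase, was higher (0.37 ± 0.06) and its relative Dnmt3a was lower, with 145 and 158 CPM with BRM014, 219 and 216 CPM with the analog and 281 and 308 CPM with DMSO (-0.52 ± 0.06). Otx2, a defining factor of this state, was listed at 0 in every library.

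Primitive endoderm genes, active in the extraembryonic lineage that arises beside the epiblast, were mostly higher with BRM014 than with the analog: 8 of 12 were higher and 1 lower, with a median of 0.54 log2. Gata6 had 44.4 and 45.4 CPM with BRM014, 29.7 and 27.4 CPM with the analog and 29.7 and 37.5 CPM with DMSO (0.65 ± 0.10), and Foxa2 had 17.6 and 17.4 CPM with BRM014, 11.1 and 7.52 CPM with the analog and 9.55 and 7.81 CPM with DMSO (0.91 ± 0.14). Dab2, an endocytic adaptor, had 72.0 and 81.7 CPM with BRM014, 45.2 and 49.7 CPM with the analog and 78.1 and 86.7 CPM with DMSO (0.69 ± 0.08). For Gata6 and Foxa2 the analog libraries were near DMSO, whereas for Dab2 BRM014 was near DMSO and the analog was lower (-0.80 ± 0.08). Over the list, analog minus DMSO had 0 higher and 6 lower genes (median -0.59), beside 8.91% higher and 9.52% lower over all genes. BRM014 minus DMSO had 4 higher and 3 lower (median -0.04) in the first batch. In the second batch it had 7 higher and 3 lower (median 0.45). Over all genes, BRM014 minus DMSO was higher for 22.6% and lower for 23.2% in the first batch. In the second batch these shares were 20.6% and 21.7%. The contrasts of the first batch share libraries with the comparison of the compounds. The summed level of 7 primitive endoderm markers was 257 and 290.0 CPM with BRM014, 185 and 175 CPM with the analog and 236 and 263 CPM with DMSO, with Pdgfra at 0 throughout. Its part in these differences was not tested. Gata4 (0.41 ± 0.08 with all libraries) lost its call without BRM014 replicate 2 (0.24 log2, adjusted p = 0.0536).

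Epithelial genes were more often lower than higher. Of 27 keratin, junction and envelope genes, 5 were higher and 13 lower, with a median of -0.54 log2. Beside Krt17, Krt42, Hopx and Tgm1, Emp1, an epithelial membrane protein, had 2.42 and 2.20 CPM with BRM014, 15.1 and 16.4 CPM with the analog and 43.0 and 36.4 CPM with DMSO (-2.76 ± 0.16). Krt8 (-0.90 ± 0.08) and Krt18 (-0.69 ± 0.07), the keratins of simple epithelia, were lower, while the junction genes Cdh1 (0.44 ± 0.13), Epcam (0.40 ± 0.06) and Dsp (0.71 ± 0.07) were higher. Every keratin gene of the list that passed the test was lower, Krt14 (-3.38 ± 0.46) and Krt19 (-1.90 ± 0.19) included. Tgm2, a transglutaminase of many tissues, had 65.3 and 65.7 CPM with BRM014, 112 and 96.4 CPM with the analog and 46.9 and 45.9 CPM with DMSO. Its analog libraries were the highest, so BRM014 was lower than the analog (-0.67 ± 0.10) and yet higher than DMSO (0.50 ± 0.10).

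Among markers of other cell types, endothelial genes had 1 higher and 5 lower of 9 (median -0.96). Pecam1, an adhesion protein that embryonic stem cells also make, had 37.98 and 34.7 CPM with BRM014, 86.6 and 90.5 CPM with the analog and 101 and 103 CPM with DMSO (-1.28 ± 0.07). Cdh5, which encodes VE-cadherin, had 0.353 and 0.358 CPM with BRM014, 1.84 and 3.49 CPM with the analog and 4.18 and 6.92 CPM with DMSO (-2.89 ± 0.45), and Kdr, a VEGF receptor, had 3.79 and 4.09 CPM with BRM014, 1.42 and 0.679 CPM with the analog and 2.66 and 2.10 CPM with DMSO (1.90 ± 0.32). Cdh5 and Kdr were thus low in all libraries and moved in opposite directions. Summed over 4 endothelial markers the level was 56.6 and 54.5 CPM with BRM014, 105 and 109 CPM with the analog and 128 and 131 CPM with DMSO, most of it Pecam1. Fibroblast markers summed to 3.7 and 3.4 CPM with BRM014, 7.7 and 7.7 CPM with the analog and 13.3 and 14.0 CPM with DMSO (7 genes, of which Col1a2 and Col3a1 were at 0). Trophoblast markers, mainly Krt8 and Krt18, summed to 183 and 176 CPM with BRM014, 305 and 286 CPM with the analog and 292 and 267 CPM with DMSO. The part of these markers in the results was not tested.

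Of 13 mesoderm genes 4 were higher and 1 lower, and of 9 neural genes 4 were higher and 1 lower. The called share was 38.5% for mesoderm genes, close to the 35.4% over all genes, and 55.6% for neural genes. Hand1, a factor of mesoderm and trophoblast, had 3.03 and 3.48 CPM with BRM014, 0.138 and 0.0906 CPM with the analog and 0.230 and 0.262 CPM with DMSO (4.76 ± 0.50), a low level even with BRM014. Irx3, a homeobox factor of the neural plate, had 4.85 and 6.18 CPM with BRM014, against 0.689 and 0.815 CPM with the analog (2.86 ± 0.34), and Pax6 had 17.4 and 17.0 CPM with BRM014, against 9.14 and 10.2 CPM with the analog (0.83 ± 0.15). Meis2, a homeobox partner of HOX proteins, had 25.1 and 22.9 CPM with BRM014, 5.61 and 5.44 CPM with the analog and 2.52 and 3.98 CPM with DMSO (2.12 ± 0.15). Hand1, Irx3 and Meis2 were higher in each BRM014 library than in any analog library. Brachyury (T) and Mixl1, defining factors of early mesoderm, were under 1 CPM with BRM014 and did not pass the test (0.94 ± 0.53, interval -0.14 to 2.02, and -0.60 ± 0.46, interval -1.53 to 0.33). Mesoderm markers summed to 1.7 and 1.9 CPM with BRM014, 1.9 and 2.0 CPM with the analog and 2.0 and 2.5 CPM with DMSO. Neural markers summed to 46.3 and 46.7 CPM with BRM014, 47.6 and 47.9 CPM with the analog and 61.6 and 60.9 CPM with DMSO, with Sox1 and Tubb3 at 0. Nes, the other neural marker measured, went the other way from Pax6. It had 28.9 and 29.7 CPM with BRM014, 38.5 and 37.8 CPM with the analog and 53.1 and 53.6 CPM with DMSO.

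Genes of the 2-cell-like state, a rare state of embryonic stem cells that expresses genes of the 2-cell embryo, were mostly higher with BRM014 than with the analog (11 of 19 higher, 1 lower, median 1.06 log2). Relative to DMSO, BRM014 gave 5 higher and 4 lower (median -0.10), and analog minus DMSO gave 1 higher and 8 lower (median -0.84). Over all genes, 22.6% were higher and 23.2% lower for BRM014 minus DMSO, and 8.91% and 9.52% for analog minus DMSO. Zscan4d, a member of the Zscan4 family that marks this state, had 4.24 and 4.04 CPM with BRM014, 2.53 and 0.951 CPM with the analog and 3.49 and 3.56 CPM with DMSO. The analog libraries were the lowest and unequal, and BRM014 did not differ from DMSO by the test (0.23 ± 0.25, interval -0.28 to 0.74). The difference between the compounds (1.25 ± 0.28, adjusted p = 0.000717) was 0.69 without analog replicate 2 and no longer passed (adjusted p = 0.0581). Trim43b, a ubiquitin ligase gene of the early embryo, instead had 14.4 and 11.7 CPM with BRM014, 1.84 and 1.45 CPM with the analog and 0.321 and 0.262 CPM with DMSO (2.99 ± 0.27), with BRM014 above the analog and the analog above DMSO. Zscan4, Trim43 and Usp17l genes are families of near-identical copies, and how their shared reads were counted is not given in the sources used here, so values of single members are uncertain.

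Stress genes gave different counts against the analog and against DMSO. ATF4 switches on genes of amino acid synthesis and uptake under stress. Of 13 such genes 1 was higher and 10 were lower with BRM014 than with the analog (median -0.36 log2). Relative to DMSO, BRM014 gave 6 higher and 3 lower, and the analog 9 higher and 0 lower. Over all genes, 22.6% were higher and 23.2% lower for BRM014 minus DMSO, and 8.91% and 9.52% for analog minus DMSO. Asns, which makes asparagine, had 577 and 568 CPM with BRM014, 719 and 746 CPM with the analog and 565 and 601 CPM with DMSO (-0.36 ± 0.05 between the compounds). Its analog libraries stood above both other groups. Phgdh and Psat1, enzymes of serine synthesis, differed by -0.91 ± 0.09 and -0.58 ± 0.05, and for these the analog did not differ from DMSO by the test (intervals 0.02 to 0.36 and 0.00 to 0.21). The higher gene was Atf3, a stress-induced factor, with 56.6 and 61.9 CPM with BRM014, 30.6 and 29.8 CPM with the analog and 21.5 and 24.2 CPM with DMSO (0.97 ± 0.09). Targets of p53, which restrain the cell cycle and promote apoptosis, had 2 higher and 9 lower of 19 between the compounds (median -0.22), and 17 of 19 lower for analog minus DMSO (median -0.79). BRM014 minus DMSO gave 1 higher and 16 lower in the first batch (median -1.02). It gave 2 higher and 8 lower in the second (median -0.10), beside 20.6% higher and 21.7% lower over all genes there. The count and median of the fall from DMSO thus differed between batches, and that difference was not tested. Cdkn1a, which encodes the cell cycle inhibitor p21, had 10.1 and 14.4 CPM with BRM014, 12.8 and 12.1 CPM with the analog and 23.9 and 26.5 CPM with DMSO. With both compounds it was lower than with DMSO in the first batch, and the compounds did not differ by the test (-0.02 ± 0.15, interval -0.32 to 0.28). Pmaip1, which encodes the apoptosis inducer NOXA, was higher with BRM014 than in either other group, at 323 and 335 CPM with BRM014, 115 and 127 CPM with the analog and 148 and 186 CPM with DMSO (1.45 ± 0.09).

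Among 28 cell cycle and replication genes 2 were higher and 13 lower (median -0.09 log2), beside 17.3% higher and 18.1% lower over all genes. The D-type cyclins, which couple growth signals to the cell cycle, were lower: Ccnd1 had 73.7 and 74.2 CPM with BRM014, 200.1 and 202 CPM with the analog and 305 and 328 CPM with DMSO (-1.44 ± 0.06, adjusted p = 6.24e-18), Ccnd2 differed by -0.82 ± 0.13 and Ccnd3 by -0.78 ± 0.07. Rrm2, a subunit of ribonucleotide reductase, had 224 and 226 CPM with BRM014, 439.6 and 406 CPM with the analog and 457 and 534 CPM with DMSO (-0.91 ± 0.08). The MCM helicase genes Mcm2 to Mcm6 did not pass the test, and their differences ran between -0.04 and 0.09 log2. Of 17 ribosomal protein genes, 0 were higher and 2 lower, Rplp0 (-0.20 ± 0.07) and Rps7 (-0.16 ± 0.06). With edgeR's quasi-likelihood test both lost their call without BRM014 replicate 2 (adjusted p = 0.166 and 0.357) and without analog replicate 2 (0.076 and 0.281), and Rplp0 also without analog replicate 1 (0.0658).

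Of 22 genes for SWI/SNF subunits, 6 were higher and 5 lower (median 0.05 log2), beside 17.3% higher and 18.1% lower over all genes. The furthest was Dpf3, a histone-reading subunit (-2.18 ± 0.77). It had 0.0505 and 0.102 CPM with BRM014, 0.368 and 0.362 CPM with the analog and 0.230 and 0.367 CPM with DMSO. Dpf3 was under 1 CPM in all of these libraries, so its difference rests on few counts. Next was Smarcd3, which encodes the BAF60C subunit (-1.56 ± 0.17). Its levels were 5.15 and 5.88 CPM with BRM014, 17.6 and 14.9 CPM with the analog and 22.3 and 17.5 CPM with DMSO. The core subunit gene Smarcb1 differed by 0.05 ± 0.06 and did not pass the test (interval -0.07 to 0.17). Smarcc1, which encodes the BAF155 scaffold of the embryonic stem cell complex, was higher by a small amount, with 511 and 537 CPM with BRM014, against 422 and 410.2 CPM with the analog (0.33 ± 0.09). Among ATPase genes of other remodellers, Smarca1 of the ISWI family had 119 and 108 CPM with BRM014, against 64.4 and 68.2 CPM with the analog (0.77 ± 0.07) and Chd7 had 258 and 275 CPM with BRM014, against 172 and 181 CPM with the analog (0.59 ± 0.08), and 5 of 9 were higher and 1 lower.

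**Figure D3:**
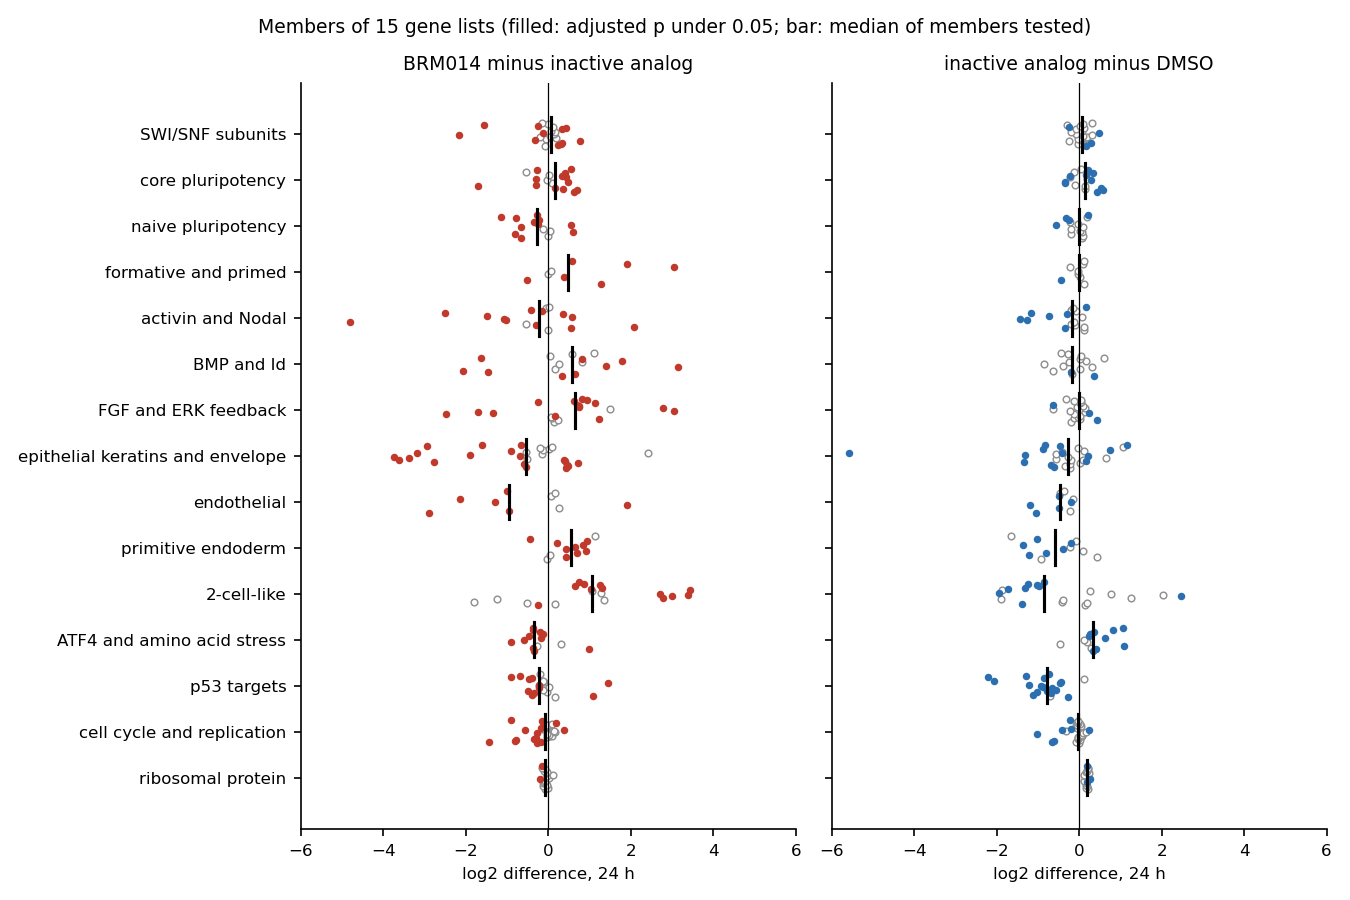
Log2 difference at 24 h for each tested member of 15 gene lists, BRM014 minus the inactive analog on the left and the analog minus DMSO on the right, with filled points at an adjusted p under 0.05, open points above it and a black bar at the median of the list. The 2-cell-like and primitive endoderm medians are above 0 on the left (1.06 and 0.54) and below 0 on the right (-0.84 and -0.59), and both panels share the analog libraries.

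Beside 17.3% higher and 18.1% lower over all genes, 6 of 19 adhesion and integrin genes were higher and 9 lower (median -0.03 log2). Of 22 matrix and collagen genes, 6 were higher and 5 lower (median 0.16). Among those higher with BRM014, Itgb1, the beta 1 integrin subunit, had 1165 and 1139 CPM with BRM014, 521 and 526 CPM with the analog and 379.7 and 442 CPM with DMSO (1.14 ± 0.06 log2, adjusted p = 2.16e-14). Its groups formed 3 separate levels, with BRM014 highest and DMSO lowest. Vcam1, an adhesion receptor of activated endothelium, had 8.13 and 7.77 CPM with BRM014, 0.505 and 0.317 CPM with the analog and 0.276 and 0.157 CPM with DMSO (4.25 ± 0.30), and Thbs2, a matrix thrombospondin, had 12.8 and 14.3 CPM with BRM014, 1.24 and 0.951 CPM with the analog and 0.276 and 0.524 CPM with DMSO (3.62 ± 0.22). Both were near 1 CPM or less outside the BRM014 libraries. Of the lower ones, Col18a1, a basement membrane collagen, differed by -0.71 ± 0.07, Nid1, which links laminin to collagen, by -0.88 ± 0.09 and the fibronectin gene Fn1 by -0.48 ± 0.10. Outside these lists, Car2, a cytosolic carbonic anhydrase, had 1076 and 1001 CPM with BRM014, 315 and 336 CPM with the analog and 153 and 148 CPM with DMSO. The analog was higher than DMSO (1.11 ± 0.06, adjusted p = 1.58e-13) and BRM014 higher than the analog (1.67 ± 0.06, adjusted p = 1.36e-18). Peg10, an imprinted gene of retroviral origin, had 1669 and 1579 CPM with BRM014, 402 and 414 CPM with the analog and 248 and 396 CPM with DMSO (1.99 ± 0.21), and Cdkn1c, an imprinted cell cycle inhibitor, had 33.8 and 32.8 CPM with BRM014, 143 and 106 CPM with the analog and 121 and 113 CPM with DMSO (-1.91 ± 0.16).

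The analog was not equal to DMSO. Analog minus DMSO passed the test in 2306 of 12517 genes (18.4%), with 1115 genes above DMSO (8.91%) and 1191 below it (9.52%). The 2306 became 1296 without analog replicate 2 and 996 when the 4 libraries compared were fitted alone. At least 2-fold differences were found for 50 higher (0.399%) and 235 lower genes (1.88%). BRM014 minus DMSO passed in 5727 genes (45.8%), 22.6% higher and 23.2% lower. The root-mean-square distance was 0.484 to 0.529 between analog and DMSO libraries and 0.830 to 0.847 between BRM014 and DMSO libraries, against 0.428 between the DMSO replicates. These contrasts share their libraries with the comparison of the compounds and are given as values only.

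Some genes moved from DMSO of the first batch with both compounds and did not differ between them by the test. Ptprv, a tyrosine phosphatase regulated by p53, had 4.24 and 5.47 CPM with BRM014, 5.15 and 5.48 CPM with the analog and 24.7 and 19.97 CPM with DMSO. The analog was lower than DMSO by 2.07 ± 0.14 log2 (adjusted p = 1.88e-11), while the compounds differed by -0.13 ± 0.17 (adjusted p = 0.585, interval -0.47 to 0.21). Cnga3, a channel subunit of cone cells, had 1.36 and 1.69 CPM with BRM014, 2.02 and 1.95 CPM with the analog and 6.98 and 6.82 CPM with DMSO, a difference between the compounds of -0.38 ± 0.25 (interval -0.90 to 0.14). Adamts8, a metalloprotease, had 6.57 and 4.55 CPM with BRM014, 6.62 and 5.93 CPM with the analog and 2.85 and 2.67 CPM with DMSO (-0.17 ± 0.21, interval -0.60 to 0.25). For Ptprv and Adamts8 the libraries of the compounds overlapped. Other genes that moved with the analog moved further with BRM014: Mmrn2, an endothelial matrix protein, had 2.93 and 4.34 CPM with BRM014, 8.96 and 9.29 CPM with the analog and 31.3 and 32.2 CPM with DMSO (-1.33 ± 0.15 between the compounds), and Hdc, which makes histamine, had 0.505 and 0.613 CPM with BRM014, 1.20 and 2.174 CPM with the analog and 6.79 and 7.03 CPM with DMSO (-1.58 ± 0.32). Glrb, a glycine receptor subunit, was higher with the analog than in both other groups, with 3.99 and 4.65 CPM with BRM014, 7.72 and 7.97 CPM with the analog and 3.44 and 3.98 CPM with DMSO (-0.86 ± 0.17). DMSO libraries of the second batch had 8.0 and 8.94 CPM for Ptprv, 3.58 and 2.88 for Cnga3 and 9.68 and 10.2 for Mmrn2. All were lower than in the first batch. For Adamts8 they had 2.06 and 3.25 CPM, for Hdc 9.07 and 8.87 and for Glrb 2.72 and 3.08. The size of a move from DMSO thus depends on the DMSO pair used.

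The same pair of compounds was also compared after 1 h at the same dose, so that 1 pair was tested at 2 matched times. At 1 h, 20 genes passed edgeR's test (0.16%), 9 higher (0.0719%) and 11 lower (0.0879%), 0 of them by 2-fold, and 1215 had an unadjusted p under 0.05 (9.71%). The 1 h count was unstable: it was 13 without BRM014 replicate 1, 2 without BRM014 replicate 2, 3 without analog replicate 1 and 52 with no filter on low counts. Of the 20 genes, 13 passed at 24 h in the same direction, 2 in the opposite direction and 5 did not pass. Over all genes tested, 17.3% were higher and 18.1% lower between the compounds at 24 h. Dusp6 had 248 and 258 CPM with BRM014 and 163 and 166 CPM with the analog at 1 h (0.62 ± 0.06, adjusted p = 8.39e-08), with a wider gap at 24 h. Fgf4 had 217 and 237 CPM with BRM014 and 345 and 323 CPM with the analog at 1 h (-0.56 ± 0.06, adjusted p = 1.11e-06). Both genes belong to FGF signalling. The genes named by rule at 1 h were chosen for libraries that do not overlap at 1 h, so their separation there is no result. Vgll3, a cofactor of TEAD factors, differed by 0.79 ± 0.11 at 1 h and 1.90 ± 0.11 at 24 h. The opposite genes were Hmox1, a heme-degrading enzyme (-0.34 ± 0.07 at 1 h, 0.31 ± 0.07 at 24 h), and Kcnk5, a potassium channel (-0.32 ± 0.06 and 0.66 ± 0.06), named after their values were seen.

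The difference between the times was tested as an interaction. It passed in 3080 genes (24.6%), with 1379 more positive (11%) and 1701 more negative (13.6%) at 24 h than at 1 h. Inhbb had 261 and 236 CPM with BRM014 and 263 and 267 CPM with the analog at 1 h, a difference of -0.09 ± 0.07 (adjusted p = 0.685), and its interaction was -4.71 ± 0.11 log2 (adjusted p = 1.99e-22). Fgfbp1 had 33.2 and 29.6 CPM with BRM014 and 36.3 and 34.2 CPM with the analog at 1 h, with an interaction of 2.94 ± 0.13 (adjusted p = 3.09e-16). At 1 h the libraries of the compounds nearly met for both genes. Of the genes at least 2-fold lower at 24 h, 4 of 582 passed in that direction at 1 h (0.687%), and of those at least 2-fold higher, 4 of 460 (0.87%). Across 12517 genes the differences at 1 h and 24 h correlated at 0.08 (Pearson, a description over genes of libraries that share only the batch).

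**Figure D4:**
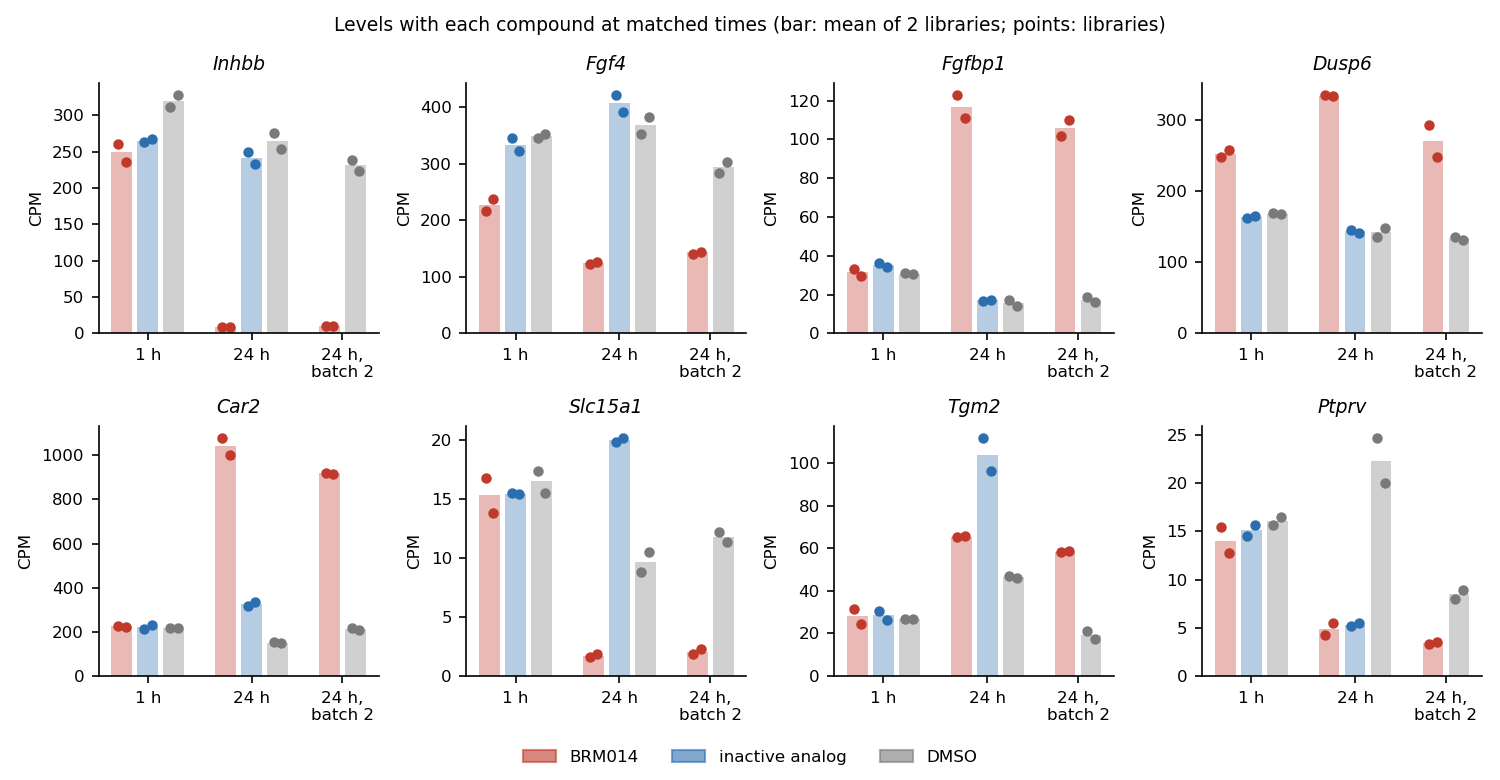
Level of 8 genes in CPM with BRM014 (red), the inactive analog (blue) and DMSO (grey) after 1 h and 24 h in the first batch and, for BRM014 and DMSO, after 24 h in the second batch, with bars at the mean of 2 libraries and points for the libraries. Inhbb is at 8.03 and 9.25 CPM with BRM014 at 24 h in the first batch and 9.91 and 9.62 CPM in the second, while Ptprv at 24 h is at 4.24 and 5.47 CPM with BRM014, 5.15 and 5.48 CPM with the analog and 24.7 and 19.97 CPM with DMSO in the first batch.

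The second batch shares no library with the comparison, and there BRM014 was set against DMSO. It passed the test in 5554 of 13130 genes (42.3%), 20.6% higher and 21.7% lower. Of the genes at least 2-fold higher with BRM014 than with the analog, 323 of the 452 tested in the second batch were called higher there (71.5%) and 1, Ankmy1, was called lower (1.38 between the compounds, -1.11 there; named after its values were seen). Of those at least 2-fold lower, 492 of 580 were called lower (84.8%) and 0 were called higher. Over all called genes the shares were 63.5% of higher and 63.9% of lower genes, with 79 and 57 called in the opposite direction. Read the other way, 653 genes (4.97%) rose at least 2-fold with BRM014 there, and the 601 of them that were tested in the first batch too had a median of 0.98 log2 for BRM014 minus analog, 1.24 for BRM014 minus DMSO and 0.30 for analog minus DMSO. Of the 975 genes (7.43%) that fell at least 2-fold there, the 950 also tested in the first batch had medians of -1.07, -1.54 and -0.49. Between the compounds, 405 of the 601 were called higher and 2 lower, and 582 of the 950 lower and 3 higher. The log2 differences correlated at 0.66 across 12368 genes (Pearson, a description, since genes are not independent).

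Inhbb had 9.91 and 9.62 CPM with BRM014 and 239 and 223 CPM with DMSO in the second batch (-4.56 ± 0.08 log2), close to its levels in the first. Fgfbp1 had 102 and 110.5 CPM with BRM014 and 18.6 and 16.1 CPM with DMSO (2.61 ± 0.10). All 12 leading falls and all 12 leading rises were called in the same direction there. Vrtn was the smallest of them, at 14.7 and 12.9 CPM with BRM014 and 11.1 and 9.46 CPM with DMSO (0.43 ± 0.15, adjusted p = 0.0244), against 2.21 ± 0.18 between the compounds. Tgm2 went the other way: it was lower with BRM014 than with the analog in the first batch (-0.67 ± 0.10) and higher than with DMSO in the second, at 58.2 and 58.8 CPM with BRM014 and 21.2 and 17.6 CPM with DMSO (1.59 ± 0.09). Zscan4d had 1.94 and 1.73 CPM with BRM014 and 1.88 and 2.171 CPM with DMSO in the second batch and did not pass (-0.13 ± 0.28). The analog was not part of the second batch, so the difference between the compounds has no libraries of its own there.

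**Figure D5:**
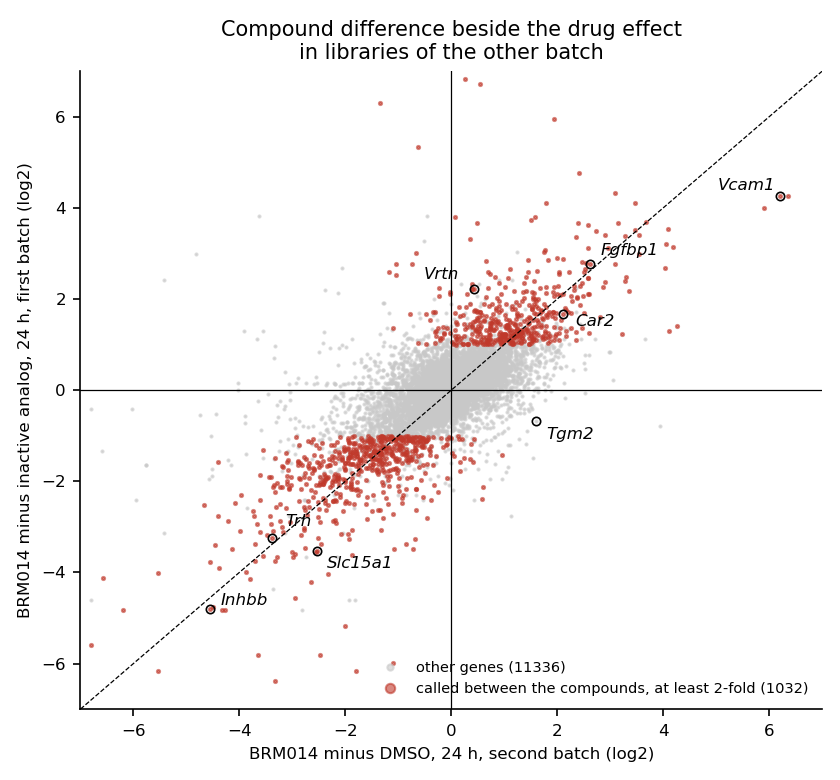
Log2 difference of BRM014 minus the inactive analog at 24 h in the first batch (y axis) against BRM014 minus DMSO at 24 h in the second batch (x axis) for 12368 genes tested in both, with genes called and at least 2-fold different between the compounds in red and a dashed line of equal differences. Of the red genes, 323 were called higher and 492 lower in both batches, which places them in the upper right and lower left, and 8 genes lie outside the axes.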

How the data were processed

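RNA was measured by stranded sequencing of total RNA, and the authors deposited raw counts per gene for all 38 libraries. The tools used include bcl2fastq 2.17 and STAR on GRCm38/mm10, per the submitters' processing notes. Which program counted the reads, and on which annotation, is not given in the sources used here. Genes passing edgeR's filter (minimum count 10, minimum total 15) were scaled by TMM and fitted with the robust quasi-likelihood test of edgeR 4.0.16 (with limma 3.58.1) in R 4.3.3. The 26 libraries of the first batch were fitted by group (13 groups, 13 residual degrees of freedom) and the 12 of the second batch separately (6 groups, 6 residual degrees of freedom). Genes were called at a Benjamini-Hochberg adjusted p under 0.05. Counts for 12388 genes of the comparison of the compounds at 24 h were also simulated, with the spread of the fitted model. Changes were set in 100 genes at 2-fold and 100 at 4-fold, all at a mean log2 CPM above 2. Of these, 98% and 100% were recovered, with 10 false calls among the other genes. Recovery in genes of lower level was not simulated. The genes named by rule are the 12 highest and 12 lowest log2 differences among called genes, each at least 2-fold, at a mean log2 CPM of at least 2 and without overlap of the libraries. They also include up to 4 called members of each of 42 gene lists by smallest adjusted p, 6 rises and 6 falls of at least 1.5-fold for analog minus DMSO, 4 and 4 for the difference between times, and up to 5 each way at 1 h. Genes for analog minus DMSO and for 1 h were also chosen without overlap of the libraries compared. Those for the difference between times had no overlap between the compounds at 24 h. Other list members were named after their values were seen. Members and lists were chosen with earlier results of these data known. Alternatives were DESeq2 1.42.0, other scalings and filters, the libraries in the fit, a replicate block and leaving out each library.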

Additional observations from a re-analysis of the deposited data

Results flagged for a closer look

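The difference between the compounds was not the same at 24 h as at 1 h in 3080 genes, tested as an interaction in edgeR with Benjamini-Hochberg adjustment. Each value that follows is the log2 difference of BRM014 minus analog at 24 h minus that at 1 h. It was 2.94 for Fgfbp1, 2.67 for Pm20d2, 2.63 for Fbn2 and 2.56 for Kitl among the leading rises. Among the leading falls it was -4.71 for Inhbb, -3.75 for Krt17, -3.64 for Hopx and -3.52 for Slc15a1.

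Genes called at 1 h gave a mixed picture. The difference was more positive at 24 h for Vgll3 (1.11), Irf1 (0.73) and Dusp6 (0.60). It was more negative for Fgf15 (-1.86), Fgf4 (-1.15), Pdk4 (-0.99), Trib1 (-0.67), Arc (-0.67) and Zfp397 (-0.51). Irf1 and Pdk4 did not pass the test between the compounds at 24 h.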

How the results depend on the processing

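None of the leading genes or list members named by rule changed direction under any alternative run. The balance of counts was less stable. With no filter on low counts, 2258 genes were higher and 2122 lower between the compounds at 24 h, against 2168 and 2268. At 1 h DESeq2 gave 15 higher and 12 lower, against 9 and 11. The count of genes that differed between the compounds at 24 h (4436) was 4121 with DESeq2, 4453 with RLE size factors, 4451 with library totals alone, 4380 with no filter, 4323 at a mean CPM of at least 1, 4779 from the 4 libraries fitted alone and 3139 to 3723 with a library left out. With a difference of at least 2-fold (1042) it was 789 to 1065, and 908 to 957 with a library left out. The count for analog minus DMSO (2306) moved to 996 with only the libraries compared and ran over 1296 to 2411 with a library left out, lowest without analog replicate 2. The 1 h count (20) was 52 with no filter on low counts and ran over 2 to 26 with a library left out. The cause was not tested. Replicate numbers did not pair the libraries (correlation of deviations between BRM014 and analog replicates -0.05), and a replicate block gave 4461 genes, 1039 at least 2-fold. Among named genes every value available under the other settings kept its side of the threshold. Calls were lost only with a library left out, for Smarcc2, Zscan4d, Gata4, Rplp0 and Rps7 among others. With 2 libraries a group, depth limits genes under about 1 CPM, where intervals are wide.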

Other observations

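Counts of genes that passed the test between the compounds at 24 h are read beside 17.3% higher and 18.1% lower over all genes tested, 35.4% in all. Immediate early genes, which answer signals within minutes, had 7 higher and 3 lower of 16 (median 0.62 log2). Egr1 had 20.6 and 26.1 CPM with BRM014, against 7.30 and 6.98 CPM with the analog (1.71 ± 0.21), Egr3 differed by 2.36 ± 0.87 and Fos by 1.05 ± 0.17, while Arc had 16.0 and 15.1 CPM with BRM014, against 38.2 and 33.3 CPM with the analog (-1.20 ± 0.10). The xenobiotic response had 4 higher and 6 lower of 14. Cyp1b1, a cytochrome P450, differed by 2.48 ± 0.25, and Aldh3a1 and Nqo1, enzymes that detoxify aldehydes and quinones, by -3.55 ± 0.61 and -1.29 ± 0.08. Trophoblast genes had 4 higher and 5 lower of 14, with Tfap2a (2.06 ± 0.43) and Eomes (0.90 ± 0.18) higher and Ascl2 (-1.64 ± 0.35) and Rhox6 (-1.66 ± 0.23) lower. Imprinted genes had 4 higher and 5 lower of 12, and guidance genes 8 higher and 7 lower of 21, with Sema3c (1.57 ± 0.22) and Robo4 (-2.15 ± 0.22) at either end.

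Fatty acid genes had 1 higher and 6 lower of 12, with Cpt1a, the carrier step of mitochondrial fat oxidation, at 25.2 and 27.8 CPM with BRM014, against 55.9 and 58.9 CPM with the analog (-1.11 ± 0.08), and Fabp5, a fatty acid carrier, at 8.48 and 9.51 CPM with BRM014, against 18.5 and 17.1 CPM with the analog (-0.99 ± 0.12). Sterol synthesis had 1 higher and 6 lower of 20, a share close to that of all genes, with every called difference under 2-fold. Glycolysis and hypoxia genes had 4 higher and 4 lower of 22, also close to that share, among them Pfkp (-1.28 ± 0.07) and Vegfa (-0.86 ± 0.08), whereas Gapdh did not pass (0.03 ± 0.09, interval -0.15 to 0.20). Polycomb genes had 6 higher and 2 lower of 21: Phf19, a subunit that recruits the complex, differed by -1.61 ± 0.12 and Bmi1 by 0.81 ± 0.10, while the enzyme gene Ezh2 did not pass (-0.03 ± 0.08, interval -0.19 to 0.12). Ion transport genes had 4 higher and 2 lower of 11. Among them, Car14 differed by 2.40 ± 0.27 and Atp1b1 by -1.10 ± 0.07.

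The other lists gave 6 higher and 2 lower of 14 for TEAD and YAP, 5 higher and 3 lower of 12 for the LIF pathway, 5 higher and 5 lower of 19 for germline genes, 3 higher and 3 lower of 9 for NRF2 targets, 0 higher and 4 lower of 12 for unfolded protein and heat shock genes, 5 higher and 2 lower of 17 for lysosome genes, 2 higher and 2 lower of 16 for NF-kB targets, 1 higher and 2 lower of 14 for interferon genes, 2 higher and 0 lower of 8 for HOX genes and their partner Meis2, 2 higher and 3 lower of 11 for DNA methylation and 0 higher and 2 lower of 3 for fibroblast genes. Some genes stand in more than 1 list.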
